A study of Mus musculus with 24 samples.

Results

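The promoters and gene bodies of 10 mouse genes that encode transcription factors of the epithelial-mesenchymal transition (EMT) were examined for H3K9ac, an acetyl mark on lysine 9 of histone H3 found at active promoters and enhancers. The genes were taken by name: Snai1, Snai2, Twist1, Twist2, Zeb1, Zeb2 and Prrx1, whose products promote the mesenchymal state, and Grhl2, Ovol1 and Ovol2, whose products maintain the epithelial state. They are 10 of 21755 protein-coding genes on chromosomes 1 to 19 and X. A promoter was the window within 1 kb of any start site annotated for the gene, and a promoter was called in a library if at least 1 peak overlapped that window.

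H3K9ac was profiled by ChIPmentation, in which Tn5 transposase tags the immunoprecipitated chromatin on the beads, in spheroids of 4T1, a mammary carcinoma line derived from a BALB/c mouse. Each of 4 groups had 3 libraries. The scramble group carried a guide RNA with no target in the mouse genome, the CPT1a knockout group carried guides against the enzyme that passes long-chain fatty acids into mitochondria, and the KAT2a knockout group carried guides against an acetyltransferase. The CPT1a knockout with acetate group, called the acetate group here, had the same target and 5 mM acetate in the medium. The medium of the other 3 groups held 75 µM palmitate, and while the labels name no palmitate for the acetate group, the study describes its spheroids as grown with palmitate. All spheroids were collected on day 5. Per the methods, Cas9 was induced with doxycycline in puromycin-selected cells, and the guide of each library is not stated in the labels. Nothing in the labels states that replicates were separate cultures, so p-values measure the spread between these libraries, which may be technical.

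In EMT, epithelial cells lose their junctions and gain motility. The Snail proteins (Snai1, Snai2) and the ZEB proteins (Zeb1, Zeb2) are zinc finger repressors that bind E-box sequences in the promoters of epithelial genes such as Cdh1, which encodes E-cadherin. Twist1 and Twist2 are basic helix-loop-helix factors, and Prrx1 is a paired-type homeobox factor. Grhl2 is a grainyhead factor that activates junction genes and represses Zeb1, and the zinc finger factors Ovol1 and Ovol2 repress Zeb1 and other mesenchymal regulators. ZEB proteins and the microRNAs of the miR-200 family repress each other. H3K9ac at a promoter is a mark of activity and does not measure the RNA or the protein.

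The promoter sequences of 6 of the 10 genes were found in RefSeq's promoter set (GRCm38.p6, the build of the peaks). The 250 bases before the start are shown for 4 of them, because they stand for the different call patterns: a promoter called outside scramble alone (Ovol2), a pair of promoters called in every library (Snai1, Twist1) and one called in none (Twist2). Lower case is the plain sequence on the gene's strand, and capitals mark an E-box of the type bound by Snail and ZEB proteins.
Ovol2, chr2:144331363-144331612, minus strand: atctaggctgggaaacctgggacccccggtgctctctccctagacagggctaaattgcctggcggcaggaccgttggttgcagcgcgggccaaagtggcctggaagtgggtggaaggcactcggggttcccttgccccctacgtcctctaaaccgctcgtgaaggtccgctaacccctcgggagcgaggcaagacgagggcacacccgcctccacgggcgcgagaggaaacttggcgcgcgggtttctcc
Snai1, chr2:167537945-167538194, plus strand: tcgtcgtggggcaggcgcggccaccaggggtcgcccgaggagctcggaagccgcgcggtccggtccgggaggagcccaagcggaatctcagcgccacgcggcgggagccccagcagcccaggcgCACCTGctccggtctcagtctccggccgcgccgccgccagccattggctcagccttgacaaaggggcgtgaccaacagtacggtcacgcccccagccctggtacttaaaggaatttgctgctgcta
Twist1, chr12:33957421-33957670, plus strand: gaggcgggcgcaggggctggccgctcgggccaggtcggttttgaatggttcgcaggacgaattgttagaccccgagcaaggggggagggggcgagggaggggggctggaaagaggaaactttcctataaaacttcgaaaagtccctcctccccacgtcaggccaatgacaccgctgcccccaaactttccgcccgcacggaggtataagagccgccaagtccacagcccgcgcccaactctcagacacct
Twist2, chr1:91801211-91801460, plus strand: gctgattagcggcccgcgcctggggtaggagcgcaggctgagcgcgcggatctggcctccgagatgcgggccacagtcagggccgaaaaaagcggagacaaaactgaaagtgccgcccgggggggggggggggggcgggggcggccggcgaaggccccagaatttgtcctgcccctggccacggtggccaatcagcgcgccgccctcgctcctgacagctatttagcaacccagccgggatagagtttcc
The windows were rich in CpG dinucleotides, with 20 in Ovol2, 27 in Snai1, 18 in Twist1 and 23 in Twist2, against 4 in the Prrx1 window that carried no peak in any library. The Twist1 window lay under a peak in 12 of 12 libraries and the Twist2 window in 0 of 12. Of the Zeb2 windows, not shown, that with 14 CpG lay under a peak in 12 libraries and those with 9, 6 and 6 in 0. A link between CpG content and calls was not tested. Both strands of the 6 genes' windows were searched for the E-box CAGGTG, for AACCNGTT (a grainyhead-type motif that includes AACCGGTT), for CCGTTA (an Ovo-type motif) and for the kappaB consensus. The only match was the E-box in Snai1, which ran from 126 to 121 bases before the start. Of 32619 RefSeq promoters of the same length, 17.3% held CAGGTG, 1.80% held AACCNGTT, 0.116% held AACCGGTT, 2.19% held CCGTTA and 5.04% held the kappaB consensus. The lack of a match says only that these letters are not in these windows.

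The peak lists held 16201 to 34330 peaks per library after 11 to 45 peaks on chromosome Y were set aside. Each list's calling depth is the background coverage by fragments at the scale used for calling, worked out from the list itself. It was highest in scramble at 2.10 ± 0.364, against 1.27 ± 0.626 for CPT1a knockout, 1.34 ± 0.632 for the acetate group and 1.503 ± 0.423 for KAT2a knockout (SD, n = 3 each). Scramble lists also held more and narrower peaks, with a median width of 585 to 686 bp against 816 to 1147 bp in the other 9 libraries. The part of these differences in the results below was not tested, except where an alternative is named. As a check of the cells, 7 of 9 mammary epithelial carcinoma markers had a promoter peak in all 12 libraries, Krt14 in 3 and Krt5 in none. All 6 immune and all 4 endothelial markers, and 5 of 6 fibroblast markers, had none in any library. The exception was Pdgfra, which was called in 12 of 12.

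The 10 genes fell into 3 classes by their promoters. Snai1, Twist1, Zeb2, Grhl2 and Ovol1 were called in 12 of 12 libraries, which was 5 of 10 genes against 49.5% of all protein-coding genes. Snai2, Twist2 and Prrx1 were called in 0 of 12. Zeb1 and Ovol2 were each called in 9 of 12 libraries, but not in the same ones. The number of promoters called was 6 in each scramble library, 6 or 7 in CPT1a knockout and in the acetate group, and 7 in each KAT2a knockout library. Over all protein-coding genes, 51.3 to 52.4% were called in a scramble library and 52.7 to 53.6% in a KAT2a knockout library, which did not overlap either. The difference in that number between KAT2a knockout and scramble was 1 (exact permutation test, two-sided, p = 0.1, the smallest that 3 against 3 libraries allow). With Benjamini-Hochberg adjustment over the 5 comparisons, the lowest exact p was 0.455.

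**Figure D1:**
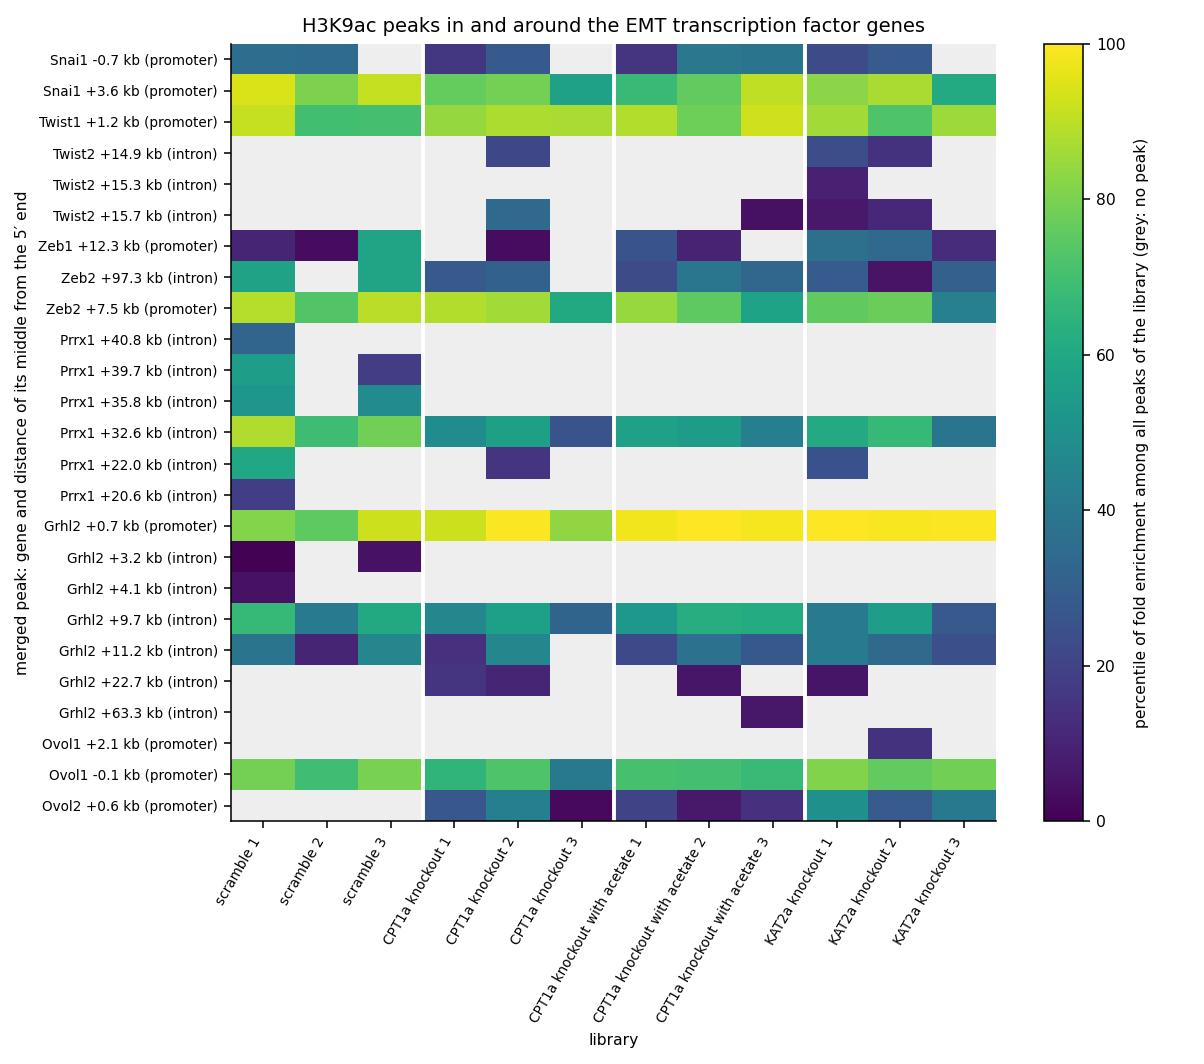
Percentile of the fold enrichment of each merged peak among all peaks of its library, for 25 merged peaks in and around 9 of the genes (rows, named by gene and distance of the middle from the 5′ end) in 12 libraries (columns, white lines between groups), with grey where no peak was called. The Ovol2 row is grey in the 3 scramble libraries alone, and the Grhl2 promoter row reaches its highest values outside scramble.

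Among the genes that promote the mesenchymal state, Snai1 carried the broadest H3K9ac domain. Snai1 encodes Snail, an inducer of EMT. A merged peak at chr2:167538111-167545472 (GRCm38) began at the start site, covered the whole gene of 4620 bp and ran beyond its 3′ end. It covered 6822 to 7255 bp in scramble, 5450 to 6579 bp in CPT1a knockout, 6066 to 6931 bp in the acetate group and 6529 to 6827 bp in KAT2a knockout. In 6 of the 12 libraries the domain was called as 1 peak, and in the other 6 as 2 to 4 peaks. A weaker peak upstream of the start, centred at -0.698 kb, was called in 9 of 12 libraries, in 2 of 3 of scramble, CPT1a knockout and KAT2a knockout and in 3 of 3 with acetate. Across the libraries, the upstream peaks ended and the domain began on either side of a gap that holds most of the printed sequence, and no library had a peak over the E-box. The strongest peak at the Snai1 promoter was wider than 92.9% of the tested promoters in the library where it ranked lowest.

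Twist1 lay under a peak that extended from about 1 kb upstream of its start over all or most of the gene of 2159 bp, depending on the library. The fold enrichment of its strongest promoter peak, which is the summit pileup over the local background of the same library, was 22.6, 13.6 and 11.6 in scramble. It was 31.5, 36.8 and 24.0 in CPT1a knockout, 32.2, 22.9 and 33.0 in the acetate group and 34.0, 25.5 and 30.7 in KAT2a knockout. All 9 values outside scramble exceeded the highest scramble value, but fold enrichment is not scaled between libraries: the median over all tested promoters was 18.7 to 19.4 in scramble and 18.5 to 31.4 elsewhere. Strength was therefore compared as the percentile of the fold enrichment among the 10777 protein-coding genes whose promoter was called in every library. On that scale Twist1 was at 68.8, 23.3 and 18.7 in scramble and between 32.5 and 80.7 in the other 9 libraries, so the groups overlapped.

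Twist2, the paralogue of Twist1, had no peak within 1 kb of its start sites in any library. Small intronic peaks 14.9 to 15.7 kb from its 5′ end were called in CPT1a knockout replicate 2, acetate replicate 3 and KAT2a knockout replicates 1 and 2. Their fold enrichment was 3.49 to 6.52, at most at percentile 0.139 of the promoter scale described above. Snai2, which encodes Slug, had no peak in the gene in any library, and the nearest peak was 89621 bp or more from its start. For Twist2 and Snai2, H3K9ac was thus not detectable at the promoter at this depth.

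Zeb2 was called in every library through a peak 3317 to 5083 bp wide at chr2:45107375-45112457. Zeb2 has 29 annotated start sites, and this peak overlapped the cluster of internal starts, while the most distal start lay 4938 to 5625 bp from the nearest peak. The antisense gene Zeb2os also starts within 1 kb of it, and H3K9ac cannot tell both transcripts apart. The percentile of Zeb2 was 60.8, 29.2 and 65.2 in scramble, 74.6, 65.4 and 36.6 in CPT1a knockout, 63.2, 44.5 and 7.88 in the acetate group, and 40.1, 44.7 and 3.35 in KAT2a knockout. Its range over the 12 libraries of 71.2 percentile points was larger than that of 92.0% of the tested promoters, and the spread lay within groups as well as between them. A weaker intronic peak 97.3 kb from the 5′ end was called in 10 of 12 libraries, all but scramble replicate 2 and CPT1a knockout replicate 3.

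Zeb1 had no peak at the start site of its longest span. Its call came from a small intronic peak 12.3 kb downstream, which lies within 1 kb of the start of a shorter annotated transcript. The peak was called in 3 of 3 scramble, 1 of 3 CPT1a knockout, 2 of 3 acetate and 3 of 3 KAT2a knockout libraries. It was weak everywhere, with a fold enrichment of 3.37 to 7.59. When every list was reduced to an equal calling depth of 0.55, it was called only in scramble replicate 3 and KAT2a knockout replicate 2. The bases of the gene under peaks were 801, 734 and 895 in scramble, 0, 326 and 0 in CPT1a knockout, 313, 241 and 0 in the acetate group, and 605, 481 and 434 in KAT2a knockout. All 9 values were below the lowest scramble value.

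Prrx1 carried no promoter peak, but an intronic peak 32.6 kb from its 5′ end (chr1:163279588-163282671) was called in all 12 libraries. The antisense gene Gm20471 starts within 1 kb of this peak. Among all peaks of its library, its fold enrichment was at percentile 88.1, 69.1 and 78.7 in scramble, 48.5, 57.0 and 25.96 in CPT1a knockout, 57.4, 55.0 and 43.2 in the acetate group, and 61.3, 67.0 and 38.9 in KAT2a knockout. All 9 libraries outside scramble were below the lowest scramble value. Their mean was 28.2 percentile points below the scramble mean (exact permutation test, two-sided, p = 0.00909 over 220 assignments of 3 against 9 libraries). This percentile depends on the other peaks of a list, and scramble lists were longer. They held 32250 peaks on average, against group means of 20219 to 23525 elsewhere, and the part of this in the difference was not tested. Against the promoters, whose values stand in the other comparisons, the peak was at percentile 22.2 to 58.3 in scramble and 0.863 to 21.5 elsewhere (exact permutation p = 0.00455, the smallest that 3 against 9 allow). The peak was also narrower outside scramble, at 2096 ± 512 bp (n = 9) against 2927 ± 171 bp (SD, n = 3; exact permutation p = 0.0182). The unscaled fold enrichment overlapped, at 12.9 ± 4.98 against 16.3 ± 3.58 (exact permutation p = 0.3). Of 2125 peaks outside promoters that were called in all libraries, 18.8% did not overlap between scramble and the rest in percentile, 369 of them lower and 31 higher outside scramble, and 16.9% did not overlap in width. The direction seen at Prrx1 was thus the common one among such peaks. Further intronic peaks of Prrx1, 35.8, 39.7, 40.8 and 20.6 kb from the 5′ end, were called in scramble libraries alone, in 2, 2, 1 and 1 of 3. Another, 22.0 kb from the 5′ end, was called in 1 scramble, 1 CPT1a knockout, 0 acetate and 1 KAT2a knockout library. Grhl2 also had intronic peaks called in scramble alone, 3.25 and 4.10 kb from its 5′ end, in 2 and 1 of 3. The share of such peaks over all genes is not given here.

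**Figure D2:**
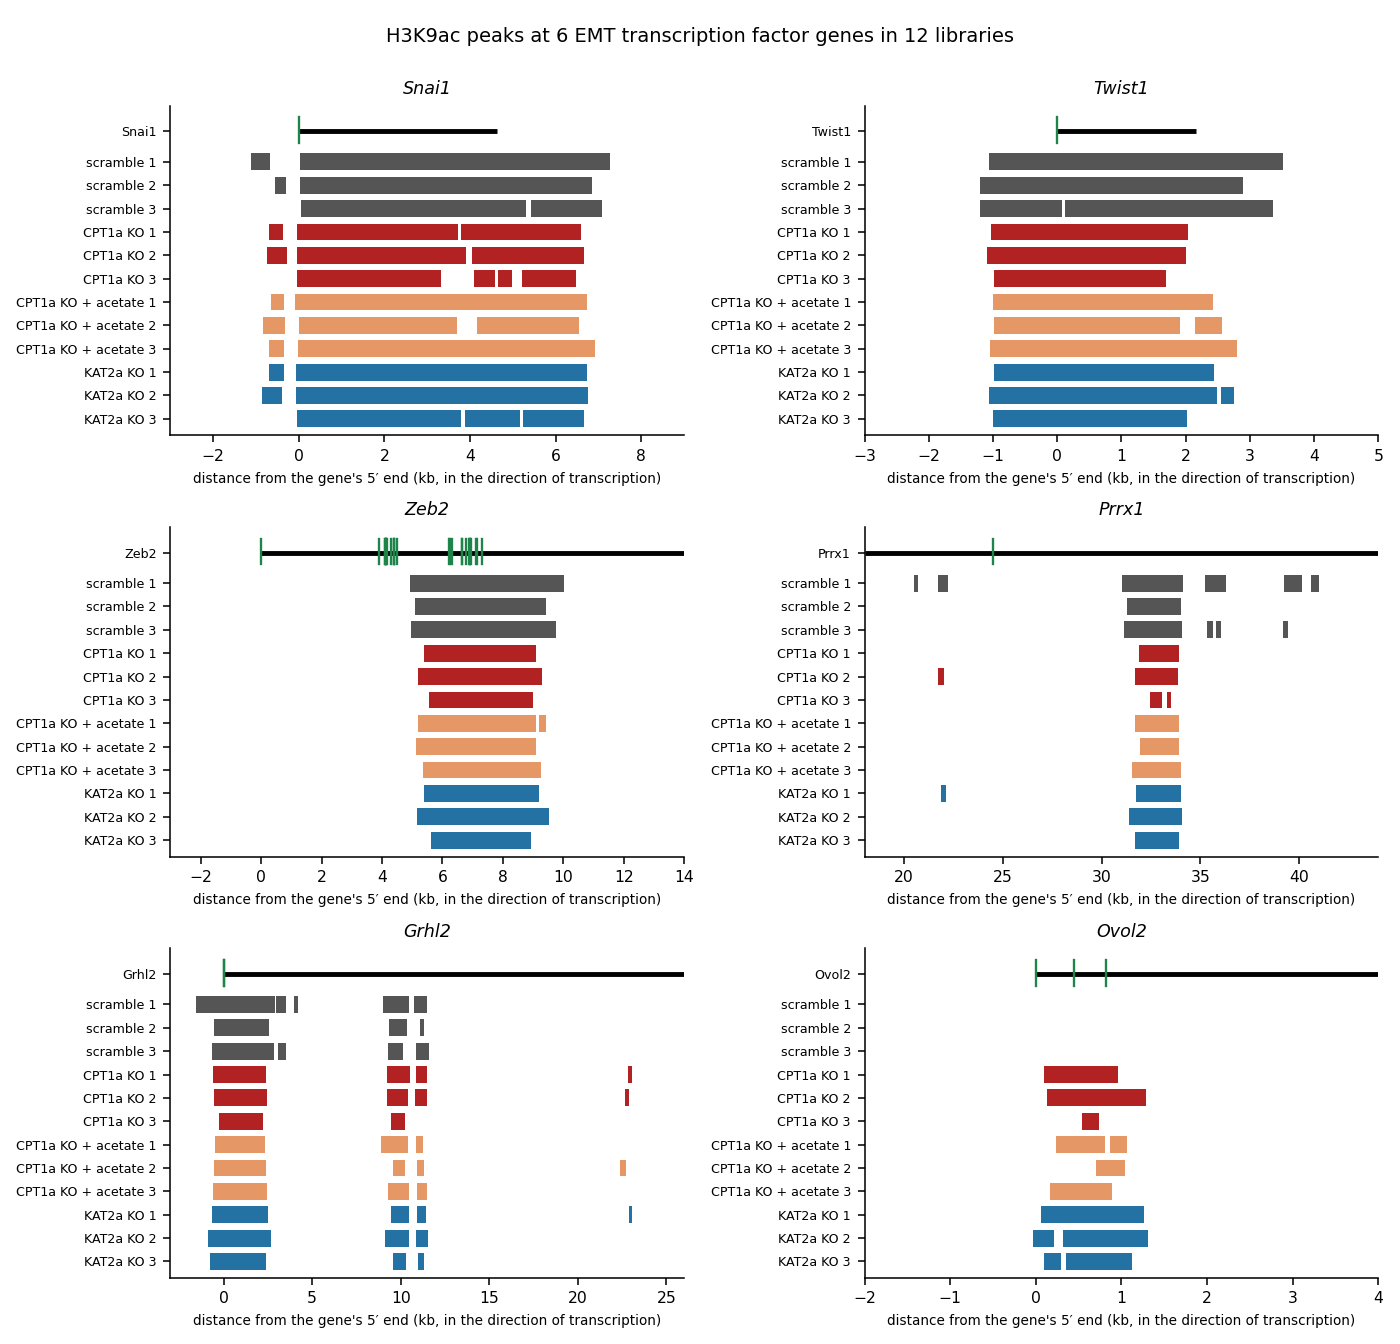
Peaks called in each of 12 libraries (bars, coloured by group) at 6 genes, by distance in kb from the gene's 5′ end in the direction of transcription, with the gene as a black line and its annotated start sites as green ticks. The Snai1 domain spans the gene in every library, the Prrx1 peak lies in an intron, and Ovol2 has peaks in the 9 libraries outside scramble and none in scramble.

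Among the genes that maintain the epithelial state, Grhl2 had the strongest promoter and Ovol2 the weakest. The Grhl2 peak at chr15:37231472-37235917 was called in 12 of 12 libraries, and the antisense gene Gm16136 also starts there. Its fold enrichment was 16.4, 16.0 and 25.0 in scramble, 37.5, 55.8 and 22.7 in CPT1a knockout, 43.3, 50.1 and 42.8 in the acetate group, and 58.4, 54.6 and 51.8 in KAT2a knockout. Its percentile among the tested promoters was 37.9, 34.0 and 74.0 in scramble, 83.0, 98.5 and 72.0 in CPT1a knockout, 95.2, 99.4 and 96.8 in the acetate group, and 99.5, 98.0 and 98.5 in KAT2a knockout. All KAT2a knockout and all acetate libraries were above all scramble libraries, while CPT1a knockout replicate 3 lay within the scramble range. Intronic peaks 9.72 kb and 11.2 kb from the 5′ end of Grhl2 were called in 12 and 11 of 12 libraries, and the antisense gene Gm16137 starts within 1 kb of both. The former did not follow the promoter: its percentile was 6.37 ± 4.07 in scramble (n = 3) and 7.25 ± 6.37 in the other libraries (SD, n = 9; exact permutation p = 0.832).

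Ovol1 lay at percentile 32.4, 22.7 and 37.8 in scramble, 27.5, 34.1 and 13.1 in CPT1a knockout, 34.2, 34.5 and 21.7 in the acetate group, and 53.0, 40.2 and 51.0 in KAT2a knockout. The KAT2a knockout libraries were all above the scramble libraries, at 48.1 ± 6.86 against 31.0 ± 7.63 (SD, n = 3 each). The exact permutation p was 0.1, the smallest that 3 against 3 allow, and the limma adjusted p was 0.328. Among all peaks of a library both groups overlapped, at 78.5 ± 2.60 against 76.2 ± 5.82 (exact permutation p = 0.7). With the GC trend removed the sign of the difference reversed, as given with the alternatives. The antisense gene AC126029.1 starts within 1 kb of the Ovol1 promoter peak. The range of Ovol1, 39.9 percentile points, was the smallest of the 5 tested genes, where the median over all tested promoters was 46.1.

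Ovol2 was called at its promoter in 9 of 9 libraries outside scramble and in 0 of 3 scramble libraries (exact permutation test, two-sided, p = 0.00455, the smallest possible). The merged peak at chr2:144330834-144332182 lies over the 3 annotated start sites of the gene and covers the printed sequence, and the antisense gene 1700108N11Rik also starts there. Its fold enrichment was 5.78, 8.43 and 4.47 in CPT1a knockout, 5.09, 4.66 and 4.20 in the acetate group, and 10.4, 5.77 and 8.62 in KAT2a knockout. These were weak peaks, at most at percentile 2.72 of the tested promoters and at percentile 2.52 to 50.1 of all peaks of a library. The bases of the gene under peaks were 867, 1152 and 204 in CPT1a knockout, 772, 332 and 717 in the acetate group, 1212, 1241 and 967 in KAT2a knockout and 0 in scramble. A promoter called in every library outside scramble and in none of scramble was rare: 0.142% of 11944 promoters called in any library had this pattern, which is 17 genes. The scramble lists were on average the deepest, and after every list was reduced to an equal calling depth of 0.55, the Ovol2 promoter was called in 3 of 3 CPT1a knockout and 3 of 3 KAT2a knockout libraries, in 0 of 3 acetate libraries and in 0 of 3 scramble libraries. Ovol2 thus no longer had the pattern at that depth, where 173 promoters had it instead of 17. With a -log10 q of at least 5 it also lost the pattern, as it was not called in CPT1a knockout replicate 3 and acetate replicate 2.

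**Figure D3:**
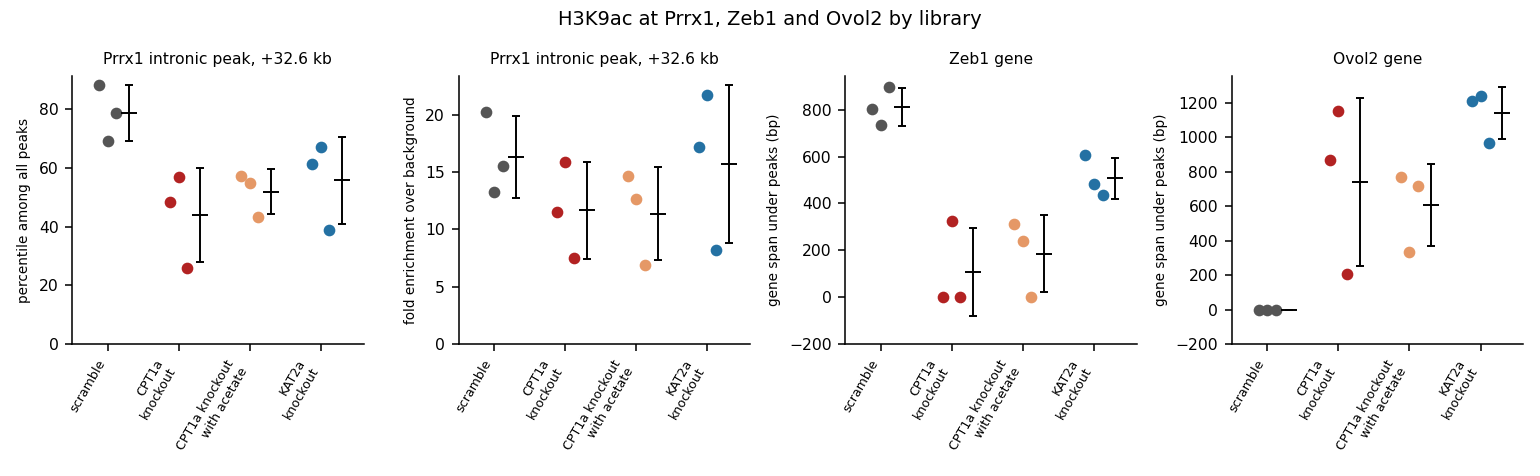
From left to right, percentile among all peaks and fold enrichment of the Prrx1 intronic peak, and bases of the Zeb1 and Ovol2 genes under peaks (y axes), by group (x axis), with a point per library and the mean ± SD beside it (n = 3 per group). Scramble is highest for the Prrx1 percentile and for Zeb1, overlaps with the other groups in the Prrx1 fold enrichment, and is at 0 for Ovol2.

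The comparisons with scramble asked whether the loss of CPT1a or KAT2a changed promoter H3K9ac at these genes. Grhl2 ranked higher in KAT2a knockout and in the acetate group than in scramble, and no other tested gene of the 10 passed the test. Strength was tested by limma on normal scores of the percentiles over all 10777 promoters, with Benjamini-Hochberg adjustment over all of them. A normal score expresses a rank in SDs of a normal distribution. Only the 5 genes called in every library could be tested, and a gene called in part of the libraries, such as Ovol2, was not.

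In KAT2a knockout, Grhl2 averaged percentile 98.7 ± 0.731 against 48.6 ± 22.0 in scramble (SD, n = 3 each). The difference was 2.29 ± 0.404 normal-score units (SE; limma adjusted p = 0.0141). This was 1 of 5 genes called, where 3.68% of all tested promoters were called, 169 higher and 228 lower. In the acetate group, Grhl2 averaged percentile 97.1 ± 2.13 (SD, n = 3), a difference from scramble of 2.03 ± 0.404 (SE; limma adjusted p = 0.0138). Again 1 of 5 genes was called, beside 5.33% of all promoters. Without scramble replicate 1, the adjusted p was 0.0579 in KAT2a knockout and 0.0641 with acetate, and without acetate replicate 2 it was 0.0622 with acetate, so both calls depended on single libraries.

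In CPT1a knockout against scramble, 0 of 5 genes passed, where limma called 9.84% of all promoters. At an unadjusted limma p under 0.05 there were 2 of 5, Grhl2 and Twist1, beside 2955 of all 10777 promoters. Grhl2 averaged percentile 84.5 ± 13.3, and its difference of 1.26 ± 0.404 had a limma adjusted p of 0.0619. Twist1 averaged 71.1 ± 6.62 against 36.9 ± 27.7 (SD, n = 3 each), and its difference of 0.939 ± 0.375 had a limma adjusted p of 0.120. By limma, Grhl2 had an adjusted p of 0.0444 without CPT1a knockout replicate 3, the list with the lowest calling depth, and Twist1 one of 0.0444 without scramble replicate 1. When promoters were ranked by their -log10 p instead of their fold enrichment, both Grhl2 (adjusted p = 0.000168) and Snai1, which was lower (adjusted p = 0.0103), passed in this comparison.

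The acetate group against CPT1a knockout asked whether acetate moved these promoters. Limma called 0 of 5 genes and 0% of all promoters, although 1005 of 10777 had an unadjusted p under 0.05, none of them among the 5. The difference for Grhl2 was 0.767 ± 0.404 normal-score units, higher with acetate (SE; limma adjusted p = 0.596). The groups overlapped for all 5 genes.

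All 9 libraries outside scramble were also set against the 3 scramble libraries. They share those scramble libraries with the comparisons above and add no independent control. Grhl2 averaged percentile 93.4 ± 9.54 (SD, n = 9) against 48.6 ± 22.0, a difference of 1.86 ± 0.330 (SE; limma adjusted p = 0.00417). This was 1 of 5 genes, beside 12.9% of all promoters, 614 higher and 771 lower. Twist1 was second with a difference of 0.765 ± 0.307 (SE; limma adjusted p = 0.113), and had an adjusted p of 0.0432 without scramble replicate 1. Snai1 was lower by 17.7 percentile points, at 46.9 ± 18.5 against 64.6 ± 17.6 (limma adjusted p = 0.333), and by -log10 p its adjusted p was 0.0145. For Zeb2 and Ovol1 the differences were -0.341 ± 0.410 and 0.0756 ± 0.213, within their errors. The median difference over all tested promoters was 0.0443 percentile points.

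**Figure D4:**
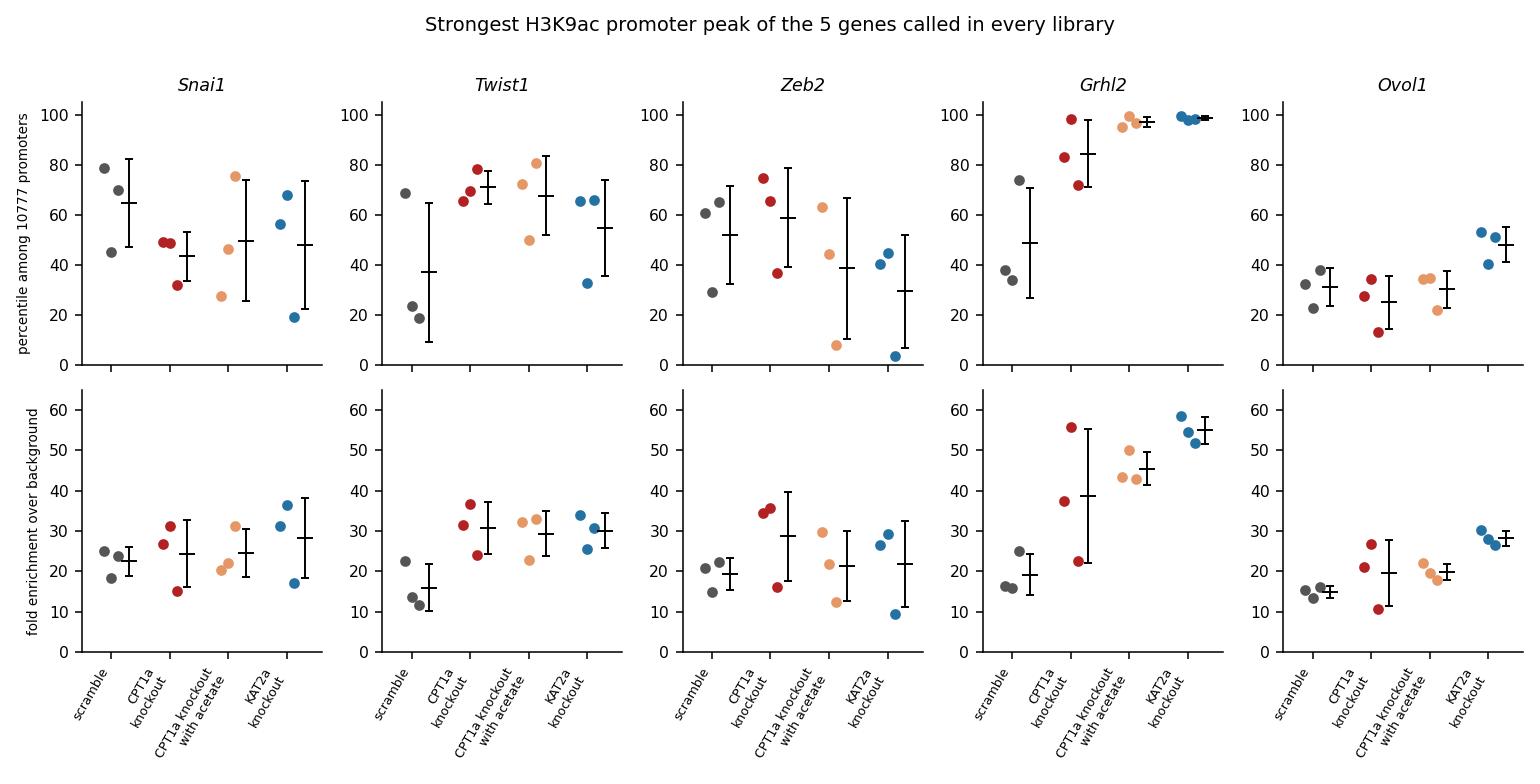
Percentile among the 10777 tested promoters (top) and fold enrichment (bottom) of the strongest promoter peak of 5 genes, by group, with a point per library and the mean ± SD beside it (n = 3 per group). In percentile, Grhl2 is above 95 in all KAT2a knockout and acetate libraries and at or below 74.0 in scramble, while the groups overlap for Snai1, Twist1 and Zeb2. In fold enrichment, Twist1 is higher in every library outside scramble than in scramble.

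The width of the promoter peaks was compared in the same way. Peaks at the 5 promoters were broad, with widths of 2414 bp (Ovol1) or more in every library against library medians of 1444 to 2886 bp over all tested promoters. In bp they were wider in scramble than in CPT1a knockout, for example 3974 against 2954 bp at Twist1 and 4737 against 3740 bp at Zeb2, but so were the medians. Limma was therefore run on log2 width after the median of each library was subtracted. It called 0 of 5 genes in each of the 5 comparisons. Over all promoters it called 14.7% in CPT1a knockout against scramble, 11.5% in KAT2a knockout against scramble, 9.72% in the acetate group against scramble, 0.00928% in the acetate group against CPT1a knockout and 22.9% in all other libraries against scramble. The only unadjusted p under 0.05 among the 5 genes was that of Snai1, which was wider with acetate than in CPT1a knockout by 0.47 ± 0.20 on the log2 scale (SE; limma adjusted p = 0.9999). In that comparison 508 of 10777 promoters had an unadjusted p under 0.05, and in the comparisons with scramble 2991 to 4061 had one. The Snai1 peak was 3372 to 3946 bp wide in CPT1a knockout, where the domain was split, and 6813, 3685 and 6931 bp with acetate. When peaks within 500 bp were merged first, the direction of the Snai1 difference from scramble changed in CPT1a knockout, as given with the alternatives.

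Over the whole gene span, the bases under peaks were lower outside scramble at Twist1, Zeb1 and Prrx1 and higher at Ovol2. In CPT1a knockout against scramble, 5 of 10 genes did not overlap, with Twist1, Zeb1, Prrx1 and Ovol1 lower and Ovol2 higher, beside 57.4% of 12942 genes with a peak in any library. In KAT2a knockout against scramble there were 4, Twist1, Zeb1 and Prrx1 lower and Ovol2 higher, beside 45.2%. In the acetate group against scramble the same 5 genes as in CPT1a knockout did not overlap, beside 49%. The acetate group exceeded CPT1a knockout at Twist1 alone, with 3514 against 2910 bp, beside 8.73%. In all other libraries against scramble 4 genes did not overlap (exact permutation p = 0.00455 each, the smallest possible), beside 35.2%. The shares among the 10 genes were close to those over all genes, and 4475 of the 4555 genes in the last comparison were lower outside scramble and 80 were higher. Ovol2 was therefore in the less common direction, and Twist1, Zeb1 and Prrx1 in the common one.

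Other genes of the EMT network were taken from fixed lists. Of 30 other EMT regulators, 25 had a promoter peak in at least 1 library and 20 were tested. Lower in all other libraries against scramble were 4, and 0 were higher, with a median difference of -0.914 percentile points, beside 12.9% of all tested promoters, 771 lower and 614 higher. They were Foxc2, a forkhead factor, at percentile 17.8 against 79.1 (limma adjusted p = 0.00136), Tcf4, an E-protein that partners Twist1, at 61.8 against 98.4 (adjusted p = 0.00628), Id2, an inhibitor of basic helix-loop-helix factors, at 58.6 against 89.5 (adjusted p = 0.0268), and Zfp217 at 57.9 against 84.3 (adjusted p = 0.0250). Foxc2 was lower than scramble in each of the groups tested alone, and Tcf4 in CPT1a knockout and KAT2a knockout. In KAT2a knockout alone 2 of 20 were thus lower and 0 higher, with a median difference of -2.57, beside 3.68% of all tested promoters. The counts were the same in CPT1a knockout, with a median of -4.33, beside 9.84%. In the acetate group 1 was lower and 0 higher, with a median of -0.502, beside 5.33%.

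Of 28 epithelial targets, all 28 had a peak in some library and 23 were tested, of which 3 were higher in KAT2a knockout than in scramble and 0 lower, with a median difference of 4.42 percentile points, beside 3.68% of all tested promoters, 169 higher and 228 lower. They were Pkp3, a desmosomal plakophilin (72.6 against 22.3, adjusted p = 0.0420), Epcam, an adhesion molecule (47.3 against 12.6, adjusted p = 0.0220), and Cldn7, a tight junction claudin (23.2 against 0.957, adjusted p = 0.0221), all by limma. Pkp3 was also higher with acetate than in scramble (74.6, limma adjusted p = 0.0231), as 1 of 23 beside 5.33% of all tested promoters. In CPT1a knockout 0 of 23 passed, beside 9.84%. The largest differences there were those of Marveld2 at percentile 24.2 against 55.0 (limma adjusted p = 0.0531) and Pkp3 at 50.7 against 22.3 (adjusted p = 0.143). In all other libraries against scramble, 2 of the 23 were higher, Pkp3 and Epcam, and 0 lower. The median difference was 2.30 percentile points, beside 12.9% of all tested promoters called. Of 28 mesenchymal targets, 15 had a peak in some library and 11 were tested. In CPT1a knockout against scramble 1 was higher and 1 lower, with a median difference of -1.62 percentile points, beside 9.84% of all tested promoters. In KAT2a knockout 0 were higher and 1 lower (median -7.60), beside 3.68%. In the acetate group 1 was higher and 0 lower (median -2.43), beside 5.33%. In all other libraries 1 was higher and 1 lower (median -5.30), beside 12.9%. Sparc, a matrix glycoprotein, was lower in CPT1a knockout (7.44 against 33.8, limma adjusted p = 0.0214) and in KAT2a knockout (7.36, adjusted p = 0.0328). Col5a1, a collagen chain, was higher in CPT1a knockout (12.8 against 2.07, adjusted p = 0.0339) and with acetate (24.6, adjusted p = 0.0103). The share of listed genes with no peak in any library was 0 of 28 for epithelial and 13 of 28 for mesenchymal targets, beside 45.1% of all protein-coding genes.

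Of 28 inducers and mediators of TGF-beta signalling, an upstream signal of EMT, 27 were in the annotation and 26 were tested. In all other libraries against scramble 2 were higher, Smurf1 (52.5 against 19.4, limma adjusted p = 0.0242) and Usp9x (64.0 against 33.6, adjusted p = 0.0333), and 2 were lower, Tgfb1, the ligand itself (60.2 against 86.2, limma adjusted p = 0.0414), and Hif1a (70.1 against 95.0, adjusted p = 0.0103), beside 12.9% of all tested promoters. Smad4, the common mediator, was higher in CPT1a knockout than in scramble (78.7 against 37.9, limma adjusted p = 0.0277), and 0 genes were lower there, beside 9.84% of all tested promoters. In KAT2a knockout and in the acetate group 0 were higher and 1, Hif1a, was lower, beside 3.68% and 5.33%. The median difference from scramble was 6.51 percentile points in CPT1a knockout, 2.32 in KAT2a knockout, 3.76 in the acetate group and 5.28 in all other libraries. In the acetate group against CPT1a knockout, 0 genes of the 4 lists passed. The 2 largest differences per list, with acetate against without, were at Klf4 (percentile 16.2 against 38.9) and Foxc1 (99.9 against 83.3) among the other regulators, Pkp3 (74.6 against 50.7) and Patj (50.9 against 72.5) among epithelial targets, Cd44 (80.7 against 55.7) and Vim (83.3 against 59.5) among mesenchymal targets, and Tgfb3 (62.9 against 31.3) and Smad4 (48.2 against 78.7) among the inducers. All 5 miR-200 family genes had a peak within 5 kb in 12 of 12 libraries. Near Mir141 and Mir200c on chromosome 6 the strongest peak was at percentile 68.2 to 97.4 of the promoter scale, and near Mir200a, Mir200b and Mir429 on chromosome 4 at 0.524 to 30.9.

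Bri3 (r = 0.921) and S100a10 (r = 0.911) were among the promoters whose normal scores followed those of Grhl2 most closely over the 12 libraries. They are described only, since they were picked as among the best of all tested promoters and the libraries share their groups. S100a10, a member of the S100 protein family, averaged percentile 98.0 in KAT2a knockout, 97.2 with acetate, 90.6 in CPT1a knockout and 76.1 in scramble. The order of means is that of Grhl2, which this way of picking favours.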

How the data were processed

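H3K9ac ChIPmentation libraries of 4T1 spheroids were analysed as 12 peak lists, 3 for each of 4 groups taken from the labels. The input libraries and the Drosophila spike-in were not used, so a change in total H3K9ac could not be measured. The submitters' processing notes name FastQC, Bowtie2, SAMtools, deepTools, MACS2, mm10 and dm6, while the methods name BWA, and the labels and the methods give different catalogue numbers for the antibody. The lists were called on single libraries. The deposited fold enrichment is the ratio of summit pileup to local background, and the -log10 p and -log10 q-value, also deposited, belong to the peak in its own list, with a smallest -log10 q of 2.00052. No read depth is given. A calling depth was recovered from fold enrichment and p by the formulas of MACS2, after a check on simulated peaks. The number of reads behind a single peak is unknown.

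The 10 genes and all lists were chosen with earlier results of these data known. Promoters were windows of 1 kb around each GENCODE vM21 start site, with an overlap of at least 1 bp. The strongest promoter peak was ranked within its library, among the genes called in all 12 libraries, and normal scores and log2 widths were fitted over all 4 groups with limma 3.58.1 in R 4.3.3, with adjusted p under 0.05 as the threshold. This was tested on simulated data. Single values were compared by exact permutation tests (Python 3.11.15, SciPy 1.17.1). All 10 genes were named in every library. From each list, up to 4 genes past the threshold in a comparison were named, by the largest difference in percentile, or the 2 largest where none passed. The 3 promoters correlated best with each gene that passed were also taken, of which 1 is not reported here. Alternatives were a 500 bp window, a -log10 q of at least 5, ranks by -log10 p or among all peaks, depth as a covariate, an equal depth of 0.55, removal of the GC trend in 50 bins, merging within 500 bp, no centring, a replicate block, leaving out each library, and groups that do not overlap.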

Additional observations from a re-analysis of the deposited data

How the results depend on the processing

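Peak lists give no read counts or marks below the calling threshold, and with 3 libraries a group an exact test cannot fall below 0.1. Equal depth means a calling depth of 0.55. Strength is in normal-score units and width in log2, and the cause of a change was not tested.

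For promoter strength, the number of the 5 tested genes called was 0 in CPT1a knockout against scramble, where leaving out single libraries gave 0 to 1 (1 without scramble replicate 1 or CPT1a knockout replicate 3) and ranks by -log10 p gave 2. In KAT2a knockout it was 1, and 0 to 1 with libraries left out (0 without scramble replicate 1) and 2 by groups that do not overlap. In the acetate group it was 1, and likewise 0 to 1 (0 without scramble replicate 1 or acetate replicate 2). In all other libraries against scramble it was 1, with 1 to 2 when libraries were left out (2 without scramble replicate 1), 2 with ranks by -log10 p and 0 by groups that do not overlap. The other alternatives gave the same counts, with 0 for the acetate group against CPT1a knockout. Over all promoters, the calls against scramble in CPT1a knockout, KAT2a knockout, the acetate group and all other libraries numbered 1060, 397, 574 and 1385. They were 3524, 2452, 2698 and 4000 with ranks by -log10 p, 472, 231, 226 and 704 with depth as a covariate, 422, 172, 222 and 679 with the GC trend removed and 448, 36, 124 and 423 without scramble replicate 1, with 1910 in CPT1a knockout with ranks among all peaks.

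For promoter width, the count was 0, also when single libraries were left out. Merging peaks within 500 bp gave 2 in CPT1a knockout, 1 in KAT2a knockout and 3 in all other libraries against scramble, and groups that do not overlap gave 1 in CPT1a knockout. Over all promoters, the 1579, 1236 and 1048 calls in CPT1a knockout, KAT2a knockout and the acetate group were 2841, 313 and 644 with no centring, and the last 2 were 2308 and 1686 with depth as a covariate. The 1048 became 1885 with peaks merged. With 1 library left out, the lowest were 566 (CPT1a knockout replicate 1), 392 (KAT2a knockout replicate 1) and 371 (acetate replicate 3).

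For the gene span, the count of 5 in CPT1a knockout and of 5 in the acetate group against scramble was 3 in each with a -log10 q of at least 5, and 5 to 7 when libraries were left out. In the acetate group against CPT1a knockout the count of 1 was 0 with a -log10 q of at least 5, 2 at equal depth and 1 to 3 when libraries were left out (3 without CPT1a knockout replicate 2 or 3, 2 without acetate replicate 2). In all other libraries the count of 4 was 2 with a -log10 q of at least 5 and 2 at equal depth, and 4 whichever library was left out.

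The mean number of promoters called differed from scramble by 0.667 in the acetate group, and at equal depth by -0.333. Between the acetate group and CPT1a knockout it differed by 0.333, and at equal depth by -1.

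Signs reversed at uncalled differences. With ranks among all peaks, Twist1 in the acetate group against CPT1a knockout went from -0.0764 to 0.0367, Zeb2 in CPT1a knockout from 0.200 to -0.180, and Ovol1 in all other libraries from 0.0756 to -0.203. With the GC trend removed, Ovol1 was -0.0501 in KAT2a knockout against 0.456, and -0.434 in all other libraries. With depth as a covariate, Ovol1 was 0.0491 in the acetate group and the Snai1 width 0.012 in KAT2a knockout. With peaks merged, the Snai1 width difference from scramble was 0.36 in CPT1a knockout, 0.47 in KAT2a knockout and 0.46 in all other libraries (adjusted p = 0.0367), and with no centring it was -0.19 in the acetate group. When single libraries were left out, against CPT1a knockout the acetate group differed by -0.173 to 0.469 at Snai1, -0.267 to 0.168 at Twist1 and -0.0243 to 0.331 at Ovol1. Against scramble, CPT1a knockout then differed by -0.0925 to 0.485 at Zeb2 and by -0.356 to 6.4e-05 at Ovol1, the acetate group by -0.815 to 0.0604 at Zeb2 and -0.145 to 0.103 at Ovol1, and all other libraries by -0.0454 to 0.172 at Ovol1. The Snai1 width then differed by -0.14 to 0.12 in KAT2a knockout and -0.042 to 0.23 in the acetate group.

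Replicate numbers did not pair the libraries: 0 of 18 same-numbered pairs had a correlation of deviations over 0.1 (-0.0630 to 0.0595). With a replicate block, the counts for strength and width kept their values, Grhl2 had an adjusted p of 0.0229 in KAT2a knockout and 0.0260 in the acetate group, and the calls over all promoters against scramble stayed within 1.5 times. The KAT2a knockout difference in promoters called had an exact permutation p of 0.25.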
